A study of Mus musculus with 16 samples.

Results

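The genes described here are the Wnt ligands, their receptors and co-receptors, their antagonists and the intracellular and nuclear genes of the pathway that a pattern of gene symbols picked out of the deposited table. The pattern took symbols starting with Wnt, Fzd, Sfrp, Dkk, Rspo, Kremen or Tcf7, together with Lrp5, Lrp6, Axin1, Axin2, Lef1, Nkd1, Nkd2, Lgr4, Lgr5, Lgr6, Apcdd1, Ctnnb1, Dvl1, Dvl2, Dvl3, Porcn, Ror1, Ror2, Ryk, Znrf3 and Rnf43. It found 52 of the 13474 genes, and used no measured value. They are 10 Wnt ligands, 1 ligand acyltransferase, 9 Frizzled receptors, 5 co-receptors, 7 antagonists, 8 genes of the R-spondin axis, 8 cytoplasmic transducers and inhibitors and 4 TCF/LEF factors.

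Secreted Wnt proteins, made active by a lipid that Porcn attaches, bind Frizzled receptors on the cell surface. With the co-receptors Lrp5 or Lrp6 they stop the destruction of beta-catenin, which then enters the nucleus and switches on genes through TCF/LEF factors; with Ror and Ryk receptors they act without beta-catenin. In bone the pathway is known for driving stromal progenitors towards osteoblasts and away from fat, and cells limit it with secreted antagonists and with feedback inhibitors, of which Axin2 is the common readout.

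RNA was sequenced from cultured mesenchymal stem/progenitor cells (MSPCs) of C57BL/6 mouse bone marrow at passage 5 to 10, either wild type (WT) or knockout (KO, Nmp4-/-) for Zfp384, the gene of the zinc finger factor Nmp4. Day 3 cells had been seeded at 10000 per well (25 per mm2), kept untreated in a non-differentiating stem cell medium with its supplement, and harvested at 3 days. Day 7 cells had been seeded at 25000 per well (62 per mm2) in alpha-MEM with antibiotics, an antifungal, glutamine and fetal bovine serum. From 48 h they also received ascorbic acid (5 µg/mL), dexamethasone (10 nM) and glycerol 2-phosphate (10 mM), and they were harvested at 7 days as early osteogenic cells. Density, medium, supplements and time thus differ together between the days and cannot be told apart. Each of the 4 groups holds 4 libraries, which the submitters describe as technical replicates of 1 biological replicate. All p-values therefore measure the spread between wells of 1 culture per condition, and a difference between genotypes cannot be told apart from a difference between 2 cultures. Which part of Zfp384 was deleted is not stated in the sources used here.

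Total counts per library ran from 31285188 to 47635039. Zfp384 itself was not lower under the KO label: it stood at 81.9 ± 1.54 CPM (counts scaled to library size; mean ± SD, n = 4 here and below) in WT and 91.5 ± 1.73 in KO libraries at day 3, and at 88.1 ± 3.17 and 117 ± 5.03 at day 7, so the direction of each genotype difference rests on the sample labels. All 10 stromal markers listed were measured, but their summed level was 5646 to 5834 CPM in WT and 1377 to 1411 CPM in KO libraries at day 3, and 6578 to 7244 against 1155 to 1268 CPM at day 7. Cxcl12 makes up most of that sum in each group but KO day 7 (4831 and 848 CPM at day 3, 5914 and 149.6 CPM at day 7). In KO day 7 the largest part was Pdgfrb, at 784 CPM against 435 CPM in WT day 7. Of the 10 genes, 2 were higher and 7 lower at day 3, and 4 were higher and 6 lower at day 7. The summed level of 13 macrophage and myeloid markers was 155 to 174 against 36.0 to 44.1 CPM at day 3 and 175 to 199 against 19.4 to 23.3 CPM at day 7. None of those 13 was at 0 in any group; 13 were lower at day 3 and 12 at day 7. The 10 osteoblast markers summed to 23491 to 24831 against 32485 to 35832 CPM at day 3, and 34069 to 37145 against 64460 to 71099 CPM at day 7. Col1a1 and Col1a2 make up most of these sums: by gene, 3 of the 10 were higher and 5 lower at day 3, with a median log2 fold change of -0.58, and 9 were higher and 1 lower at day 7, with a median of 1.20. The part of these markers in the results below was not tested, and in such bulk samples fewer cells of a type and less RNA per cell cannot be told apart. The median log2 fold change between genotypes also differed by chromosome, among autosomes from -0.46 on chromosome 12 to 0.82 on chromosome 13 at day 3, and the chromosome's median is given beside some genes, among them those whose sign turned when it was set to 0 (Fzd2, Kremen1 and Lrp6).

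Counts were tested with edgeR's quasi-likelihood test over all genes, and calls were made at an adjusted p (Benjamini-Hochberg, over all genes) under 0.05. Comparing KO with WT libraries at day 3, 25 Wnt genes were higher, 23 lower and 4 not called, against backgrounds of 43% of all genes higher and 43.4% lower. A change of 2-fold or more was reached by 14 upward and 10 downward, beside 11.7% and 17.2% of all genes. At day 7 the counts were 22 higher, 26 lower and 4 not called, against 41.7% and 44.3%, with 14 up and 14 down by 2-fold or more, against 13.7% and 16.9%. The shares called at any size are thus close to those of the whole table, in which most genes were called. Changes of 2-fold or more were more frequent among the Wnt genes than among all genes upward on both days and downward at day 7. Downward at day 3 they were near the background. The size of change was larger: the median absolute log2 fold change was 0.91 for the Wnt genes and 0.57 for all genes at day 3, and 1.05 and 0.59 at day 7, while the signed medians were 0.00 and -0.09. The highest and lowest libraries of the 2 genotypes did not overlap for 50 of the 52 genes at day 3 (96.2%, against 82.5% of all genes) and 45 at day 7 (86.5%, against 79.9%).

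These splits depend on the scaling. When libraries were scaled by the sizes behind the authors' deposited scaled columns, the median of all genes moved to 0.49 at day 3 and 0.55 at day 7, and 72.9% and 75.4% of the genes called were higher under KO, against 49.7% and 48.5% here. The Wnt genes then split into 30 higher and 17 lower at day 3 and 32 and 17 at day 7. The signs of 11 small differences named below as lower turned under that scaling: Fzd2, Fzd7, Dvl3 and Kremen1 at day 3, and Fzd5, Fzd7, Lgr4, Lrp6, Ror2, Wnt5a and Dvl3 at day 7.

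**Figure D1:**
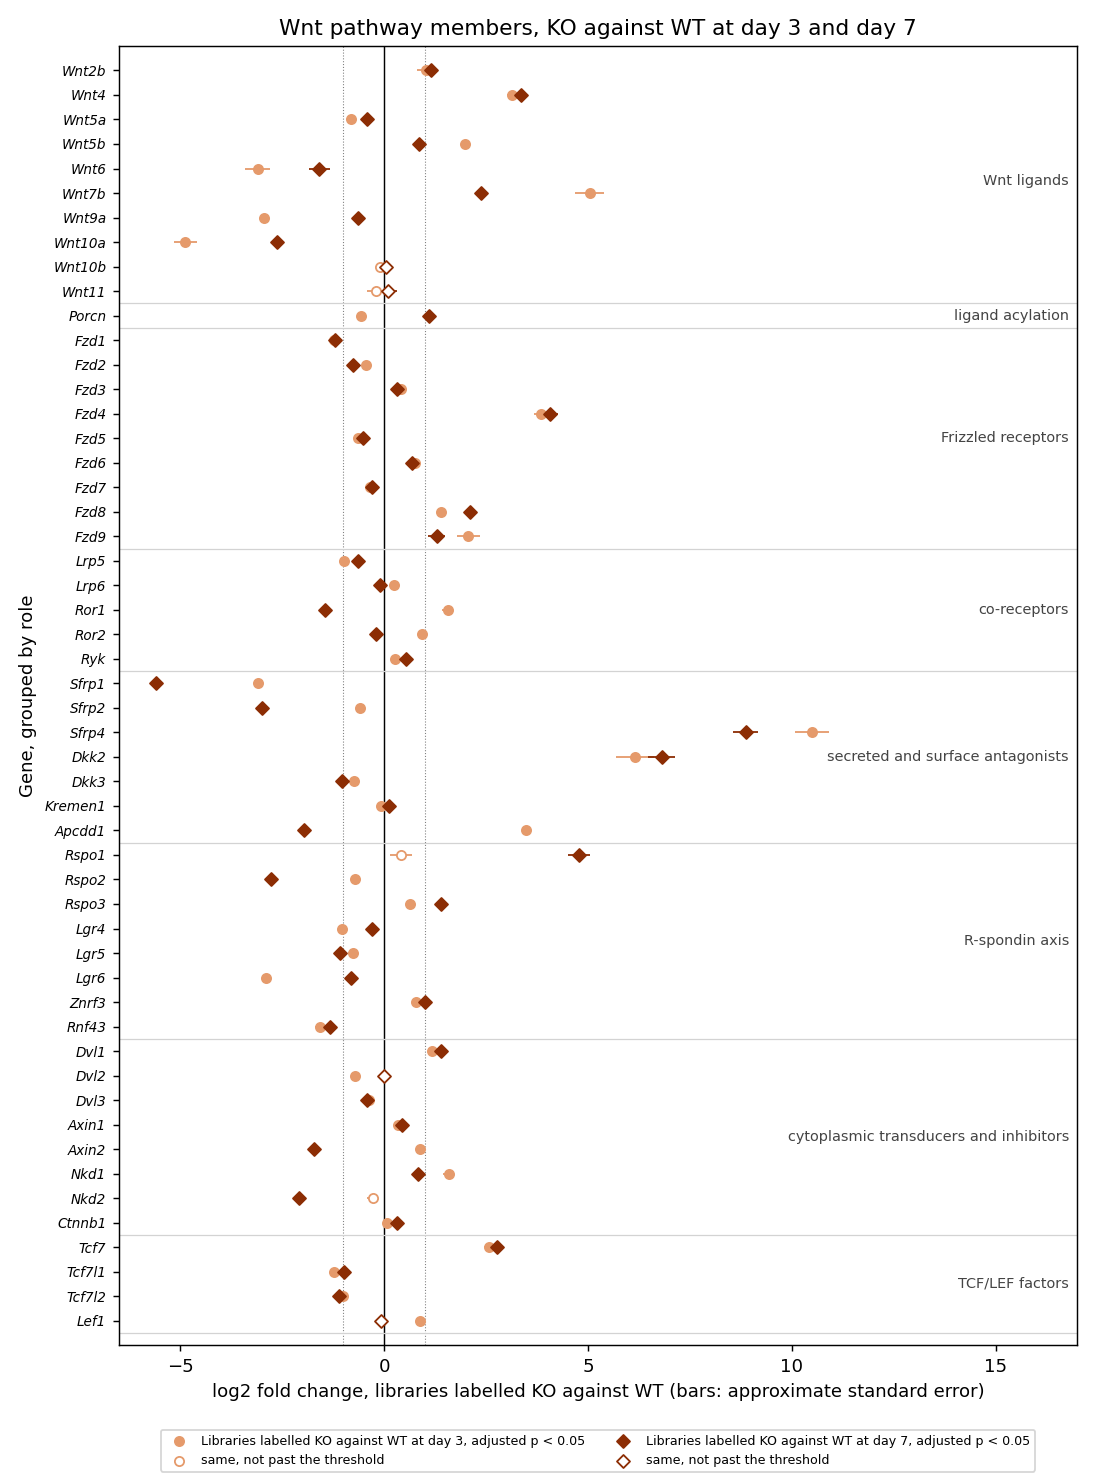
Log2 fold change of each of the 52 Wnt genes in libraries labelled KO against WT (x axis) at day 3 (circles) and day 7 (diamonds), grouped by role (y axis); horizontal bars are approximate standard errors, open symbols did not pass an adjusted p of 0.05, and dotted lines mark 2-fold. Most genes keep their side of 0 on both days, while Apcdd1, Axin2 and Ror1 lie to the right at day 3 and to the left at day 7; the values of Sfrp4 and Dkk2 come from near-absent WT counts and depend on the model's prior.

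Of the 52 genes, 19 were higher on both days and 20 lower on both days (36.5% and 38.5%, beside 32% and 33.9% of all genes). The other direction on the other day was found for 7: Apcdd1, Axin2, Ror1, Ror2 and Lrp6 were higher under KO at day 3 and lower at day 7, and Porcn and Kremen1 lower and then higher (9.62% and 3.85%, beside 5.68% and 4.91% of all genes). Wnt11 alone was called in 0 of the 5 comparisons, and 21 genes were called in all 5. The same was not counted over all genes, most of which were called in each comparison, so these numbers are not read as a trait of the Wnt genes.

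Among the ligands, KO libraries held more Wnt4, Wnt5b, Wnt7b and Wnt2b and less Wnt10a, Wnt9a, Wnt6 and Wnt5a than WT libraries on both days, while the most abundant ligand, Wnt10b, was called on neither. Thus 4 of 10 ligands rose, 4 fell and 2 were not called at each day. At day 3, Wnt7b stood at 0.0505, 0.071, 0.0203 and 0.0271 CPM in the WT libraries and at 1.39, 1.37, 1.07 and 2.12 CPM in those labelled KO. At day 7 it was at 3.6, 3.31, 3.15 and 4.58 CPM in the WT and 19.1, 18.4, 19.9 and 18.2 CPM in the KO libraries. Wnt7b, known to stimulate osteoblast differentiation, was lowest in all 4 WT day 3 libraries and highest in all 4 KO day 7 libraries, with no overlap between any of the groups. The differences were 5.04 (SE 0.36, adjusted p = 2.1e-13) on the log2 scale at day 3, where the WT group held few counts, and 2.37 (SE 0.10, adjusted p = 1.4e-18) at day 7. Wnt4 was at 1.16, 1.11, 1.12 and 0.731 CPM in the WT libraries of day 3 and at 9.0, 9.64, 9.46 and 8.78 CPM in the KO libraries. Its day 7 values were 0.677, 0.661, 0.877 and 1.07 CPM in WT and 7.45, 9.73, 8.86 and 7.67 CPM in KO libraries. Wnt4, a ligand that mostly signals without beta-catenin in stromal cells, separated the genotypes on both days and did not pass the test between days in either genotype. Its log2 fold changes were 3.14 at day 3 and 3.36 at day 7 on chromosome 4, where the median gene was higher by 0.68 and 0.61.

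For Wnt10a the day 3 libraries gave 2.05, 2.01, 1.95 and 2.19 CPM in WT and 0.0851, 0.0808, 0.0628 and 0.0326 CPM under KO. The day 7 libraries gave 4.6, 5.77, 6.11 and 5.63 CPM in WT and 0.96, 0.948, 0.721 and 0.927 CPM under KO. Wnt10a, a ligand that acts through beta-catenin and favours bone over fat in mouse progenitors, was lower in every KO library than in any WT library of its day. The log2 fold change was -4.87 (SE 0.27, adjusted p = 4.9e-16) at day 3 and -2.63 (SE 0.14, adjusted p = 1.1e-16) at day 7. The day 3 value rests on 1 to 3 counts in each KO library. Its neighbour on chromosome 1, Wnt6, at 2 to 7 counts in each KO library of day 3, had a mean of 1.17 CPM in WT and 0.136 CPM in KO libraries at day 3 and of 0.994 and 0.325 CPM at day 7, and fell by 3.10 and 1.59 on the log2 scale. At day 3, Wnt9a stood at 31.4, 32.4, 34.8 and 36.1 CPM in the WT libraries and at 4.46, 4.28, 4.02 and 4.7 CPM in those labelled KO. At day 7, Wnt9a stood at 22.3, 21.1, 19.7 and 22.1 CPM in WT and 11.5, 12.4, 14.7 and 16.3 CPM in KO libraries. Wnt9a, known from joint formation, was lower under KO on both days and the gap narrowed, from a log2 fold change of -2.95 to -0.64 (interaction 2.31 (SE 0.12, adjusted p = 1.4e-15)).

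At day 3 the remaining ligands differed less between genotypes. Wnt5a, the main ligand of beta-catenin independent signalling, was 52.6 ± 2.28 CPM in WT and 29.9 ± 1.11 CPM in KO libraries at day 3, and 82.1 ± 2.89 and 61.4 ± 2.06 CPM at day 7. Its relative Wnt5b went the other way, from 2.53 ± 0.194 to 10 ± 0.939 CPM and from 6.18 ± 0.677 to 11.2 ± 0.997 CPM. Wnt2b was at most 2.11 CPM in any library and higher under KO by 1.04 and 1.14 on the log2 scale. For Wnt11 the 95% intervals of the genotype difference ran from -0.66 to 0.24 at day 3 and from -0.35 to 0.56 at day 7, so a change within those bounds was not detectable at its 0.961 to 1.87 CPM.

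Per kilobase of exon, the scale on which genes can be compared, Wnt10b made up 68.1% ± 1.24 of all ligand RNA in WT and 76.8% ± 0.438 in KO libraries at day 3, and 46.3% ± 2.04 and 48.8% ± 3.27 at day 7. Wnt10b, a ligand known to promote bone formation in mice, fell between days by 0.97 on the log2 scale in WT and 0.82 in KO libraries. Its genotype differences were -0.10 (SE 0.05, adjusted p = 0.051) and 0.05 (SE 0.05, adjusted p = 0.31). Wnt5a was next in each group, at 15%, 10.3%, 31.1% and 23.6% in WT day 3, KO day 3, WT day 7 and KO day 7. The place after it differed: Wnt9a held it in WT day 3 (12.6%) and WT day 7 (10.6%), Wnt5b in KO day 3 (5.65%), and Wnt7b, Wnt5b and Wnt9a lay within their spread of each other in KO day 7 (7.2% ± 0.363, 7.09% ± 0.806 and 6.97% ± 1.27). The summed ligand level was 80.3 ± 0.807, 66.6 ± 1.74, 60.5 ± 0.80 and 59.5 ± 1.47 CPM per kilobase in the same order of groups.

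**Figure D2:**
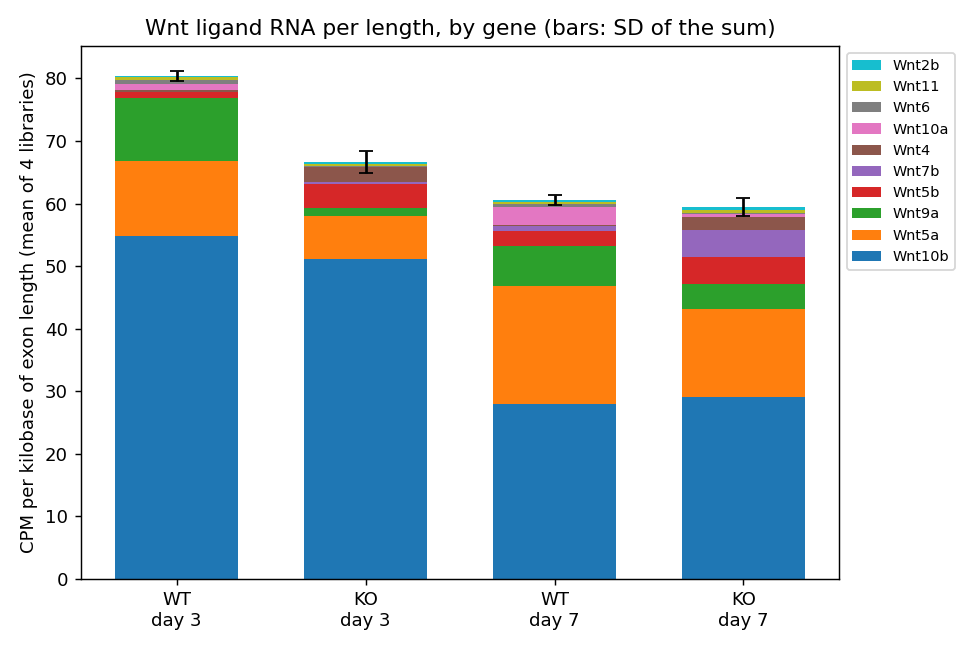
Mean RNA level of the 10 Wnt ligands in each group, in CPM per kilobase of exon length (y axis), stacked by gene; error bars are the SD of the sum over 4 libraries. Wnt10b is the largest block in every group, Wnt9a is thin in KO day 3, and Wnt7b and Wnt4 are visible blocks in KO day 7.

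Porcn, the enzyme that adds the lipid without which Wnt proteins are neither released nor bound, crossed over between days. Porcn was at 24.3, 23.9, 26.2 and 24.3 CPM in the WT libraries of day 3 and at 17.9, 16.6, 17.3 and 14.8 CPM in the KO libraries. Levels at day 7 were 41.4, 40.3, 38.8 and 40 CPM in WT and 95.7, 82.2, 81.1 and 84 CPM in KO libraries. The KO libraries lay below all WT libraries at day 3 and above all of them at day 7. The log2 fold change went from -0.57 (SE 0.06, adjusted p = 8.3e-10) to 1.10 (SE 0.05, adjusted p = 6.2e-18), and the increase between days was 0.70 in WT and 2.36 in KO libraries.

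The 9 Frizzled receptors split by gene and kept their side on both days: Fzd3, Fzd4, Fzd6, Fzd8 and Fzd9 were higher in KO libraries, and Fzd1, Fzd2, Fzd5 and Fzd7 lower. Day 3 levels of Fzd4 were 0.227, 0.663, 0.264 and 0.271 CPM in WT and 4.71, 5.5, 5.72 and 4.96 CPM in KO libraries. At day 7 it was at 0.352, 0.45, 0.411 and 0.283 CPM in the WT and 5.83, 5.8, 6.83 and 7.03 CPM in the KO libraries. Fzd4, which also serves Norrin in blood vessels, was at most 0.663 CPM in a WT library and at least 4.71 CPM in a KO library. Its log2 fold change was 3.86 (SE 0.19, adjusted p = 2.3e-17) at day 3 and 4.07 (SE 0.19, adjusted p = 4.7e-18) at day 7. The endothelial marker Kdr, the only 1 of 5 such markers measured, moved the same way, from 0.135 to 0.346 CPM in WT to 1.82 to 2.45 CPM in KO libraries at day 3 and from 0.439 to 0.846 to 12.8 to 13.9 CPM at day 7; its part was not tested. At day 3, Fzd8 stood at 10.3, 10.7, 11.1 and 11.3 CPM in the WT libraries and at 28.7, 29.7, 28.9 and 27.2 CPM in those labelled KO. Its day 7 values were 16.3, 18.7, 16.9 and 19.1 CPM in WT and 84.3, 81.8, 73.1 and 68.4 CPM in KO libraries. Fzd8 was higher in every KO library than in any WT library, by 1.40 and 2.12 on the log2 scale, against a chromosome 18 median of 0.68 and 0.61. Fzd9 rose by 2.07 and 1.29, at no more than 1.68 CPM.

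Fzd1 was 97.4 ± 1.84 CPM in WT and 41.5 ± 1.51 CPM in KO libraries at day 3, and 149 ± 3.08 and 64.9 ± 2.58 CPM at day 7. The difference was -1.23 and -1.20 on the log2 scale, so the receptor rose between days to a like degree in both genotypes (interaction 0.03 (SE 0.05, adjusted p = 0.63), 95% interval -0.08 to 0.14). The other 5, Fzd2, Fzd3, Fzd5, Fzd6 and Fzd7, had log2 fold changes within -0.76 to 0.77; that of Fzd2 at day 3 (-0.43) was that of the median gene of chromosome 11 (-0.44). Per kilobase, Fzd2 made up 35.2% ± 0.613 of Frizzled RNA in WT and 33.5% ± 0.607 in KO libraries at day 3 and was the largest. At day 7 the largest was Fzd1 in WT (31.4% ± 0.50) and Fzd8 in KO libraries (25.7% ± 1.72). Summed Frizzled RNA was 87.2 ± 2.53, 67.9 ± 1.03, 109 ± 2.04 and 89.4 ± 3.21 CPM per kilobase in WT day 3, KO day 3, WT day 7 and KO day 7.

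Of the co-receptors, Lrp5, whose loss lowers bone mass in mice, was lower under KO on both days, and its partner Lrp6 changed little. Lrp5 was at 158, 164, 157 and 167 CPM in the WT libraries of day 3 and at 87.6, 83.4, 76.1 and 79.3 CPM in the KO libraries. The day 7 libraries gave 149, 160.1, 152 and 165 CPM in WT and 96.1, 105, 102 and 101 CPM under KO. The genotypes did not overlap, with log2 fold changes of -0.98 (SE 0.04, adjusted p = 5.2e-19) and -0.63 (SE 0.04, adjusted p = 1.4e-14). Lrp6 was 160.0 ± 5.89 and 188 ± 8.84 CPM at day 3 and 202 ± 7.72 and 188 ± 7.2 CPM at day 7, differences of 0.24 and -0.11 on the log2 scale, against a chromosome 6 median of -0.38 and -0.31; with that median set to 0 the day 7 difference became 0.23. For Ror1 the day 3 libraries gave 1.64, 1.77, 1.91 and 1.73 CPM in WT and 4.94, 5.52, 5.97 and 4.44 CPM under KO. At day 7, Ror1 stood at 9.51, 9.81, 9.02 and 7.83 CPM in WT and 3.33, 3.62, 3.84 and 2.46 CPM in KO libraries. Ror1, a receptor tyrosine kinase that binds Wnt5a, was thus higher in all KO libraries at day 3 and lower in all of them at day 7. The log2 fold change turned from 1.56 to -1.44 (interaction -3.0 (SE 0.17, adjusted p = 3.8e-15)), against a chromosome 4 median of 0.68 and 0.61. Its relative Ror2 went from 0.92, near the chromosome 13 median of 0.82, to -0.19. Ryk, the most abundant of the 5 per kilobase in each group, was higher under KO by 0.28 and 0.55.

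The most abundant antagonists were lower in KO libraries, and others that had next to no counts in WT were present. Of the 7 genes, Sfrp1, Sfrp2 and Dkk3 fell and Sfrp4 and Dkk2 rose on both days, while Apcdd1 and Kremen1 changed sides. At day 3, Sfrp1 stood at 275, 276, 256 and 278 CPM in the WT libraries and at 31.6, 29.4, 33.2 and 33.5 CPM in those labelled KO. Levels at day 7 were 494, 506, 585 and 516 CPM in WT and 10.7, 10.3, 12.6 and 10.1 CPM in KO libraries. Sfrp1, a secreted protein that binds Wnt ligands and whose loss raises bone mass in mice, was lower in each KO library than in any WT library, and the gap widened. The log2 fold change was -3.09 (SE 0.06, adjusted p = 1.1e-23) at day 3 and -5.59 (SE 0.07, adjusted p = 1.2e-27) at day 7. Sfrp2 was at 544, 550.5, 518 and 533 CPM in the WT libraries of day 3 and at 353, 364, 343 and 356 CPM in the KO libraries. At day 7 it was at 738, 839, 791 and 749.8 CPM in the WT and 94.1, 106, 95.8 and 93.9 CPM in the KO libraries. Sfrp2, a related secreted protein, rose between days in WT libraries by 0.54 on the log2 scale and fell by 1.86 in KO libraries. The genotype difference was -0.60 (SE 0.04, adjusted p = 2.5e-14) at day 3 and -3.0 (SE 0.04, adjusted p = 3.0e-30) at day 7.

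Day 3 levels of Dkk3 were 439, 462, 454 and 466 CPM in WT and 267, 277, 274 and 276 CPM in KO libraries. Its day 7 values were 316, 329, 318 and 298 CPM in WT and 149, 161, 159 and 149 CPM in KO libraries. Dkk3, the divergent member of the Dickkopf family, fell under KO by 0.74 and 1.03 on the log2 scale, against a chromosome 7 median of 0.41 and 0.28. At day 3, Sfrp4 stood at 0, 0, 0 and 0 CPM in the WT libraries and at 5.17, 5.06, 4.56 and 4.7 CPM in those labelled KO. The day 7 libraries gave 0, 0.0529, 0 and 0 CPM in WT and 9.67, 6.92, 7.45 and 7.64 CPM under KO. Sfrp4 RNA, whose loss in mice thins cortical bone, was found in all KO libraries and in 1 of 8 WT libraries, where it rested on 2 counts. At day 3 the 4 WT libraries together held 0 counts and the 4 KO libraries 659. With 3 counts put in place of the 0, the KO level was 274-fold higher. The 95% counting interval reached down to 222-fold. At day 7 the ratio of 1142 to 2 counts, scaled to library size, was 584, with a 95% counting interval of 161 to 4832; without WT library 10, which held both counts, the fitted log2 fold change went from 8.87 to 11.20. Dkk2 was at 0.0505, 0, 0.0203 and 0 CPM in the WT libraries of day 3 and at 1.73, 1.24, 1.29 and 1.83 CPM in the KO libraries. At day 7, Dkk2 stood at 0.0271, 0.0529, 0 and 0.0849 CPM in WT and 4.19, 4.16, 6.51 and 5.05 CPM in KO libraries. Dkk2, which binds Lrp5 and Lrp6 and is needed for late osteoblast function in mice, was likewise seen in all KO libraries and only as stray counts in WT. At day 3 the ratio of 204 to 3 counts, scaled likewise, was 84.7 (95% counting interval 28.6 to 414); without WT library 1, which held 2 of the 3, the fitted log2 fold change went from 6.16 to 7.09. These intervals cover counting error only. Kremen1, a surface receptor for Dickkopf proteins, was close between genotypes (-0.07 and 0.11 on the log2 scale, against a chromosome 11 median of -0.44 and -0.46, and 0.39 at day 3 with that median set to 0) and rose between days by 0.85 in WT and 1.04 in KO libraries. The day 3 difference of Kremen1 was not called in 6 fits that left out 1 library each, with adjusted p up to 0.14. No gene of the deposited table carried the symbol Dkk1, which the pattern would have taken.

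Per kilobase, summed antagonist RNA was 486 ± 9.82 CPM in WT and 294 ± 5.1 CPM in KO libraries at day 3, and 656 ± 28 and 145 ± 4.43 CPM at day 7. Sfrp2 was the largest part in 3 groups, at 55.2% ± 0.678, 60.3% ± 0.481 and 59.4% ± 1.16 in WT day 3, KO day 3 and WT day 7. In KO day 7 it was 33.5% ± 1.01, with Dkk3 at 31.7% ± 0.60 and Kremen1 at 26% ± 0.608. Marker genes of cartilage and fat also differed between the genotypes. Summed over 4 cartilage markers, of 6 listed, they stood at 4449 to 5005 CPM in WT libraries at day 3. The KO libraries then stood at 50.7 to 66.7 CPM. At day 7 the sums were 810 to 876 CPM in WT and 88.6 to 101 CPM in KO libraries. Col2a1 made up almost all of the sum in WT libraries (4634 CPM at day 3, 808 CPM at day 7). In KO libraries Col2a1 was at 35.4 CPM at day 3 and, as a small part of the sum, at 16.1 CPM at day 7. Of the 4, 2 were lower and 2 higher at day 3, and 1 was lower and 3 higher at day 7, with Acan at 0 in all WT libraries. Summed over 5 adipocyte markers, of 6 listed, they stood at 298 to 312 against 25.4 to 27.5 CPM at day 3 and 202 to 230 against 60.4 to 67.7 CPM at day 7, and all 5 were lower on both days. In WT libraries both sums were lower at day 7 than at day 3. By gene, 1 of the 5 adipocyte markers was higher and 2 lower, and 1 of the 4 cartilage markers was higher and 2 lower. Their part in the antagonists' differences was not tested.

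**Figure D3:**
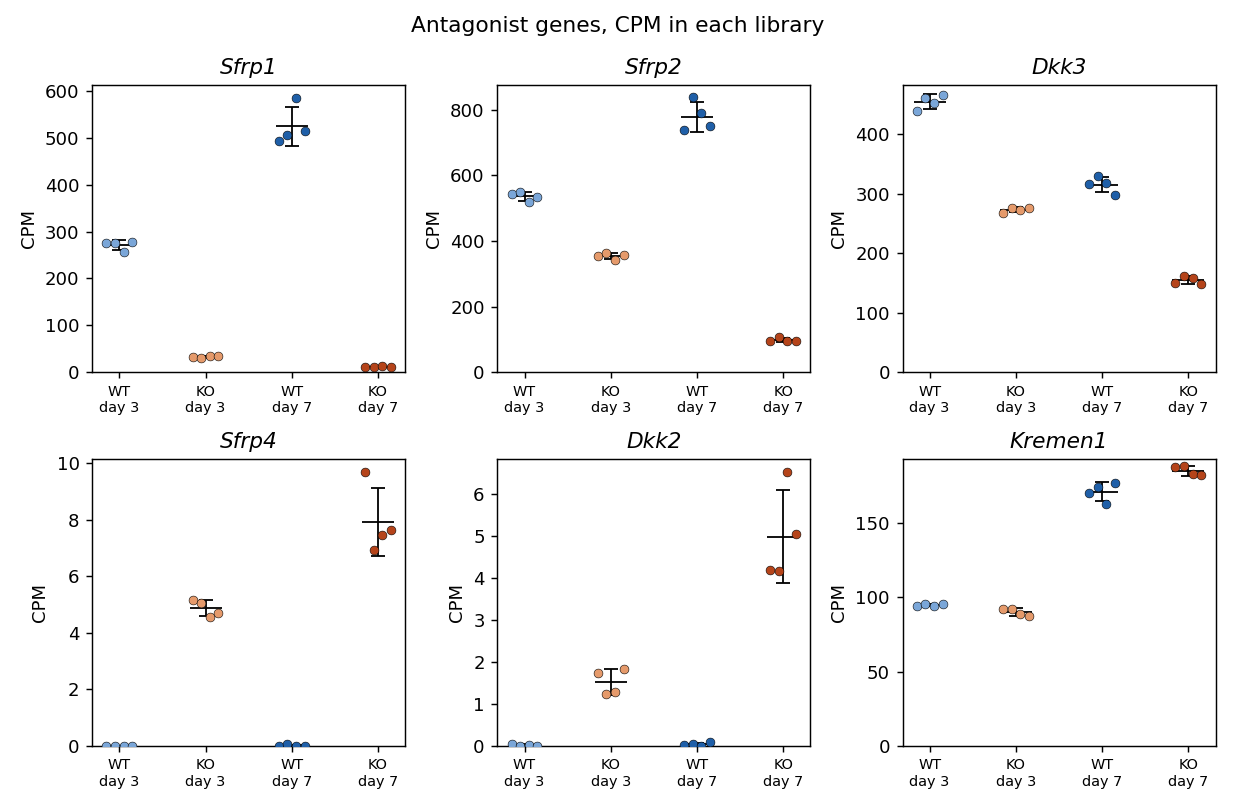
Level of 6 antagonist genes in CPM (y axis, linear, each panel with its own scale from 0) in each of the 4 libraries of each group (points), with the mean (wide mark) and SD (bars). Sfrp1, Sfrp2 and Dkk3 are lower in both KO groups, Sfrp4 and Dkk2 sit at or near 0 in both WT groups, and Kremen1 differs mainly by day.

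In the R-spondin axis, secreted R-spondins bind the receptors Lgr4, Lgr5 and Lgr6 and so keep the ligases Znrf3 and Rnf43 from removing Frizzleds. Of these 8 genes, 2 were higher, 5 lower and 1 not called under KO at day 3, and 3 were higher and 5 lower at day 7. For Rspo2 the day 3 libraries gave 54.4, 55.7, 52.1 and 52.9 CPM in WT and 31.9, 31.7, 35 and 32.1 CPM under KO. Levels at day 7 were 72.1, 72.8, 77.5 and 73.7 CPM in WT and 11.6, 10.6, 11.1 and 9.78 CPM in KO libraries. Rspo2, a ligand known to support osteoblast differentiation in mice, was the most abundant R-spondin per kilobase in WT libraries on both days and in KO libraries at day 3. It was lower under KO without overlap, with differences of -0.72 (SE 0.04, adjusted p = 6.2e-15) and -2.78 (SE 0.05, adjusted p = 6.7e-28) on the log2 scale. At day 3, Rspo1 stood at 0.48, 0.284, 0.407 and 0.406 CPM in the WT libraries and at 0.738, 0.431, 0.628 and 0.294 CPM in those labelled KO. At day 7 it was at 0.135, 0.132, 0.0822 and 0.0849 CPM in the WT and 3.36, 3.07, 2.83 and 3.1 CPM in the KO libraries. Rspo1 overlapped between genotypes at day 3 and lay far apart at day 7, falling from day 3 in WT and rising in KO libraries. The day 7 log2 fold change was 4.78 (SE 0.26, adjusted p = 2.3e-16) and the interaction 4.36 (SE 0.42, adjusted p = 3.1e-10). Rspo3 was 4.22 ± 0.383 and 6.64 ± 0.885 CPM at day 3 and 4.06 ± 0.131 and 10.7 ± 1.13 CPM at day 7, and made up a larger share of the axis per kilobase than Rspo2 in KO day 7 (18.7% ± 1.79 against 13.5% ± 0.853).

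The receptors were lower under KO on both days, Lgr6 by the most at day 3 and Lgr5 at day 7. Lgr6 was at 65, 70.5, 70.4 and 70 CPM in the WT libraries of day 3 and at 8.32, 10.2, 9.08 and 9.17 CPM in the KO libraries. Its day 7 values were 17.8, 20.4, 20 and 18.7 CPM in WT and 14.3, 10.4, 9.55 and 9.68 CPM in KO libraries. Lgr6, a marker of skin stem cells in mice, was highest in the WT day 3 libraries and lower in every KO library than in any WT library of its day. The log2 fold change was -2.90 (SE 0.09, adjusted p = 2.0e-18) at day 3 and -0.80 (SE 0.09, adjusted p = 4.9e-08) at day 7. Lgr4, the widely expressed member, differed by -1.03 and -0.30, and fell between days in both genotypes. Day 3 levels of Lgr5 were 5.15, 4.66, 4.76 and 4.06 CPM in WT and 2.27, 2.72, 3.11 and 2.9 CPM in KO libraries. The day 7 libraries gave 22.1, 21.4, 20.3 and 18.9 CPM in WT and 9.32, 8.64, 11.9 and 9.36 CPM under KO. Lgr5, best known as a stem cell marker of the gut and a target of beta-catenin, was lower under KO on both days, with log2 fold changes of -0.77 and -1.07, and rose between days in both genotypes, by 2.15 and 1.84 on the log2 scale. The ligases went apart. Znrf3 was 16.2 ± 0.628 and 27.9 ± 1.85 CPM at day 3 and 12 ± 0.755 and 24.1 ± 1.65 CPM at day 7, higher under KO by 0.79 and 1.00. Rnf43 was lower by 1.57 and 1.32, with libraries described below.

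Ctnnb1, which encodes beta-catenin, was the most abundant of the cytoplasmic genes per kilobase in each group and differed little by genotype. It stood at 707 ± 4.92 CPM in WT and 741 ± 10.1 CPM in KO libraries at day 3, and reached 958 ± 8.4 and 1192 ± 27.2 CPM, respectively, by day 7. The differences were 0.07 (SE 0.03, adjusted p = 0.03) and 0.32 (SE 0.03, adjusted p = 2.7e-11) on the log2 scale; the day 3 difference turned to -0.0041 with total counts in place of the trimmed mean of M values (TMM) factors and was not called in 3 fits that left out 1 library each, with adjusted p up to 0.07. RNA does not show how much beta-catenin protein was stable. The Dishevelled genes, which pass the signal from Frizzled receptors inward, differed from each other. Dvl1 was higher under KO by 1.17 and 1.40 on chromosome 4 (medians 0.68 and 0.61). Dvl2 was lower by 0.72 at day 3 and at 0.00 at day 7 (95% interval -0.08 to 0.08) on chromosome 11 (medians -0.44 and -0.46). Dvl3 was lower by 0.38 and 0.41. Axin1, the constant scaffold of the destruction complex, was higher by 0.35 and 0.45.

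The feedback genes are inhibitors that beta-catenin itself is known to switch on, and they set the days apart. Axin2, the inducible scaffold of the destruction complex, and Nkd2, which binds Dishevelled, were low at day 3 in both genotypes and rose at day 7 far more in WT than in KO libraries. At day 3, Axin2 stood at 2.43, 2.74, 3.13 and 2.65 CPM in the WT libraries and at 4.8, 5.09, 5.88 and 4.54 CPM in those labelled KO. At day 7, Axin2 stood at 40.1, 39.9, 37.1 and 38.8 CPM in WT and 11, 13.3, 12.1 and 11.3 CPM in KO libraries. Each group stood clear of the other 3. The KO difference turned from 0.88 (SE 0.10, adjusted p = 3.5e-09) on the log2 scale at day 3 to -1.71 (SE 0.06, adjusted p = 4.0e-20) at day 7, since the increase between days was 3.82 in WT and 1.23 in KO libraries. The median of chromosome 11, which holds Axin2, was -0.44 at day 3 and -0.46 at day 7. Nkd2 was at 2.43, 2.44, 2.48 and 2.55 CPM in the WT libraries of day 3 and at 2.36, 1.91, 1.79 and 2.09 CPM in the KO libraries. Levels at day 7 were 17.4, 18, 14.9 and 17.3 CPM in WT and 4.7, 3.19, 4.06 and 3.8 CPM in KO libraries. The genotypes of Nkd2 nearly met at day 3 (-0.28 (SE 0.13, adjusted p = 0.052)) and did not overlap at day 7 (-2.10 (SE 0.09, adjusted p = 1.5e-18)), although the median gene of chromosome 13 was higher under KO by 0.70.

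The promoters of Axin2 and Nkd2 are shown because these genes rose together at day 7, and that of Wnt11 because it holds a TCF/LEF core motif although Wnt11 was called in 0 of the 5 comparisons. They are RefSeq sequences of build GRCm38.p6, from 250 bases before to 50 bases after the start of the gene, 5′ to 3′ on the gene's strand. Axin2 lies at chr11:108920099-108920398 on the plus strand, Nkd2 at chr13:73847582-73847881 on the minus strand and Wnt11 at chr7:98834862-98835161 on the plus strand. Capitals mark the motif, here on the strand opposite to the gene.
Axin2: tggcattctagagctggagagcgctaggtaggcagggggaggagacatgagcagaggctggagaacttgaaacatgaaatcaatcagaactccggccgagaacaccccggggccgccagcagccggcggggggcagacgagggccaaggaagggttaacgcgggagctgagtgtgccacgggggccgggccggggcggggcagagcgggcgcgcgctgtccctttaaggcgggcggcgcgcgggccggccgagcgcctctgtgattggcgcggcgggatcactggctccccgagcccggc
Nkd2: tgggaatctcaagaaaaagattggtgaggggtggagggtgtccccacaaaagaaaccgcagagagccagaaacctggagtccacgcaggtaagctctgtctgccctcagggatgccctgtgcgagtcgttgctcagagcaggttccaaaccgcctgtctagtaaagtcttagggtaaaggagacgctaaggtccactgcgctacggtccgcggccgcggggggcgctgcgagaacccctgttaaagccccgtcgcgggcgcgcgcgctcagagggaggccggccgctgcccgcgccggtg
Wnt11: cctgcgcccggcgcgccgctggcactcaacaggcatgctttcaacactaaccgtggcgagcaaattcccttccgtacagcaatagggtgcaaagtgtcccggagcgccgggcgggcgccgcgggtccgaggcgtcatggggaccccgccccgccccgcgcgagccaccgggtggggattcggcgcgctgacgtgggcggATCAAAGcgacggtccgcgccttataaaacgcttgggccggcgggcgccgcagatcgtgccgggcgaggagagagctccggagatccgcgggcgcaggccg

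The motif was searched as CTTTGAA or CTTTGAT and as CTTTGTA or CTTTGTT, on both strands; these forms do not overlap each other on 1 strand. It occurs in 5544 of 32851 RefSeq mouse promoters of this length (16.9%) and in 5 of the 42 promoters found for 32 of the 52 genes (11.9%). Of the promoters nearest to the start in the deposited table, 2 hold it, those of Fzd7 and Wnt11. These letters are not in the windows shown for Axin2 and Nkd2, nor in those of Rnf43, Lef1 or Tcf7, which says nothing of sites outside 300 bases.

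Other feedback genes did not share the pattern of Axin2 and Nkd2 in full. For Apcdd1 the day 3 libraries gave 1.89, 1.44, 1.75 and 1.11 CPM in WT and 16.9, 18.2, 17.2 and 17.8 CPM under KO. At day 7 it was at 53.1, 49.4, 43 and 47.7 CPM in the WT and 12.7, 12.5, 12 and 12.1 CPM in the KO libraries. Apcdd1, a membrane glycoprotein that binds Wnt ligands and Lrp5, was higher in all KO libraries at day 3 and lower in all of them at day 7, with no overlap of any groups. Its log2 fold change turned from 3.48 (SE 0.10, adjusted p = 2.6e-23) to -1.97 (SE 0.07, adjusted p = 1.9e-21), and the difference between days was 4.95 in WT against -0.50 in KO libraries. At day 3, Nkd1 stood at 1.14, 2.03, 2.01 and 2.33 CPM in the WT libraries and at 6.19, 5.15, 5.91 and 5.39 CPM in those labelled KO. Its day 7 values were 5.96, 4.73, 4.85 and 5.8 CPM in WT and 10.3, 9.16, 9.02 and 9.2 CPM in KO libraries. Nkd1, the relative of Nkd2, was higher under KO on both days, by 1.59 and 0.82, without overlap. Rnf43 was at 4.98, 5.35, 4.98 and 5.36 CPM in the WT libraries of day 3 and at 1.82, 1.89, 2.2 and 0.979 CPM in the KO libraries. The day 7 libraries gave 17.2, 17.1, 15.5 and 16.7 CPM in WT and 6.24, 7.18, 6.62 and 6.65 CPM under KO. Rnf43 was lower under KO on both days, without overlap, and rose between days by 1.69 in WT and 1.94 in KO libraries (interaction 0.25 (SE 0.16, adjusted p = 0.16), 95% interval -0.09 to 0.60).

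**Figure D4:**
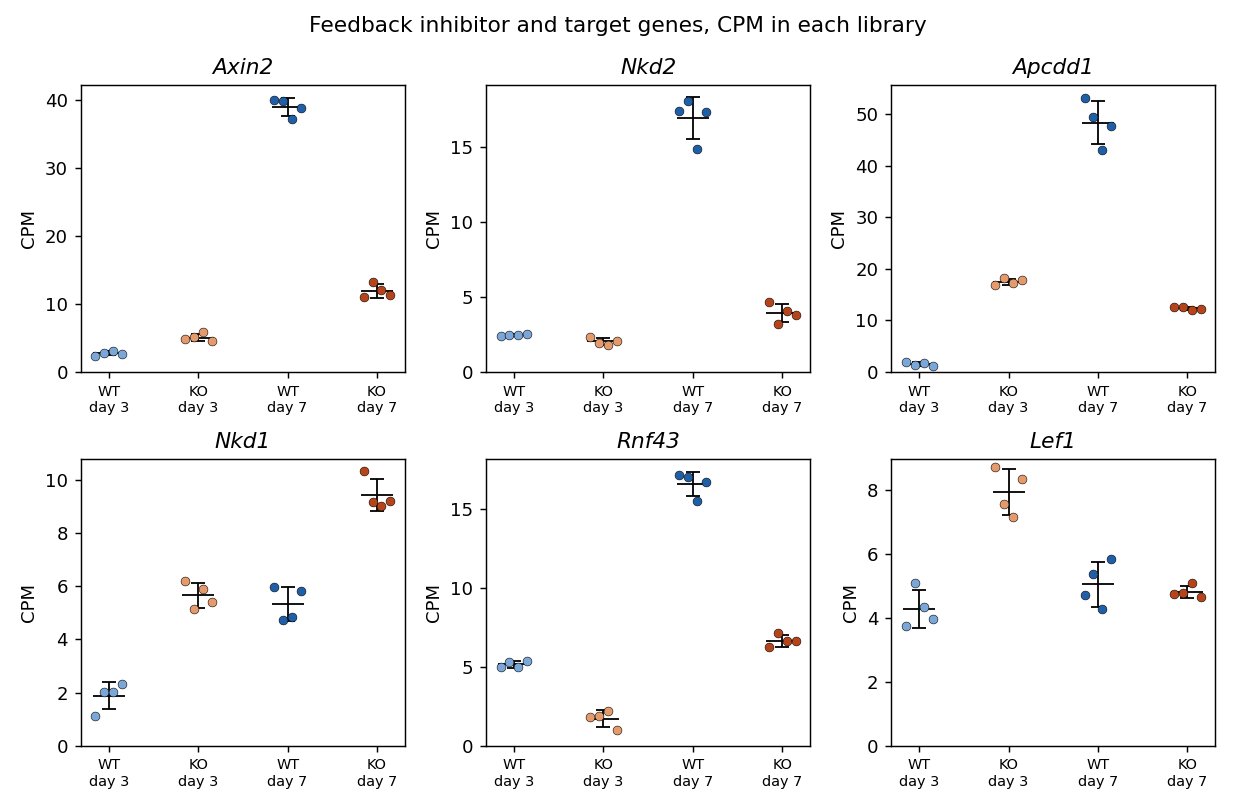
Level of 6 feedback inhibitor and target genes in CPM (y axis, linear, each panel with its own scale from 0) in each of the 4 libraries of each group (points), with the mean (wide mark) and SD (bars). Axin2, Nkd2, Apcdd1 and Rnf43 peak in WT day 7, Nkd1 in KO day 7 and Lef1 in KO day 3.

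The nuclear factors that bind beta-catenin also changed in make-up. Day 3 levels of Tcf7 were 1.77, 2.11, 1.3 and 1.52 CPM in WT and 9.48, 9.51, 9.43 and 11 CPM in KO libraries. At day 7, Tcf7 stood at 4.39, 3.49, 3.4 and 4.1 CPM in WT and 27.9, 28.6, 26.5 and 22.3 CPM in KO libraries. Tcf7, an activating factor that is itself a target of the pathway, was higher in every KO library than in any WT library, by 2.56 (SE 0.12, adjusted p = 1.3e-17) and 2.78 (SE 0.10, adjusted p = 8.8e-21) on the log2 scale. At day 3, Tcf7l1 stood at 83.1, 86.1, 82.8 and 86.8 CPM in the WT libraries and at 38.7, 38.2, 34.1 and 33.1 CPM in those labelled KO. Levels at day 7 were 80.3, 82, 76.2 and 81.7 CPM in WT and 40.6, 43.8, 39.3 and 38.4 CPM in KO libraries. Tcf7l1, which mostly represses, was lower in every KO library, by 1.23 and 0.98. Tcf7l2, which can do either, was lower by 1.01 and 1.11. Lef1 was at 3.74, 5.09, 4.35 and 3.98 CPM in the WT libraries of day 3 and at 8.74, 7.57, 7.16 and 8.36 CPM in the KO libraries. At day 7 it was at 4.71, 5.4, 4.28 and 5.85 CPM in the WT and 4.75, 4.8, 5.1 and 4.66 CPM in the KO libraries. Lef1, an activating factor and target, was higher in all KO libraries at day 3 (0.89 (SE 0.10, adjusted p = 4.0e-09)) and overlapped between genotypes at day 7 (-0.07 (SE 0.11, adjusted p = 0.56), 95% interval -0.30 to 0.17). Per kilobase, Tcf7l1 made up 70.6% ± 0.353 of the RNA of these 4 genes in WT and 51.7% ± 2.36 in KO libraries at day 3, and 73.3% ± 0.487 and 46.3% ± 1.26 at day 7. Tcf7 reached 38.6% ± 1.82 in KO day 7.

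The day 7 culture changed the Wnt genes in both genotypes, and differently. In WT libraries 26 genes were higher at day 7, 15 lower and 11 not called, beside 32.3% and 34.9% of all genes higher and lower, and 12 rose and 3 fell by 2-fold or more, beside 5.89% and 3.79%. In KO libraries 29 were higher, 17 lower and 6 not called, beside 40.6% and 39.3%, and 15 rose and 3 fell by 2-fold or more, beside 12.5% and 8.79%. The median log2 fold change of the 52 genes was 0.39 in WT and 0.30 in KO libraries, against -0.01 and 0.01 for all genes. With the authors' library sizes the WT split of all called genes went from 48.1% to 34.5% higher, and that of the Wnt genes from 26 and 15 to 26 and 18. The days did not overlap for 42 of 52 genes in each genotype (80.8%, against 63.1% of all genes in WT and 71.8% in KO libraries).

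The largest increases in WT libraries were those of Wnt7b (6.34 on the log2 scale), Apcdd1 (4.95), Axin2 (3.82), Nkd2 (2.77), Ror1 (2.35) and Lgr5 (2.15), among genes reaching 1 CPM. In KO libraries Wnt7b rose by 3.67, Rspo1 by 2.55, Porcn by 2.36, Rnf43 by 1.94 and Lgr5 by 1.84, and Sfrp2 fell by 1.86. Both genotypes raised 18 genes and lowered 9 (34.6% and 17.3%, beside 21.8% and 23.6% of all genes), while 6 rose in WT and fell in KO libraries and 4 did the reverse (11.5% and 7.69%, beside 5.24% and 6.26% of all genes). These comparisons share no library.

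The genotype by day interaction, the test of whether the day response differs, was called for 18 genes toward KO and 15 away from it, against 32.5% and 33.5% of all genes. By 2-fold or more it was called for 6 and 10, against 9.21% and 7.04%. By role, 4 of the 7 antagonists were called away from KO (Apcdd1, Sfrp1, Sfrp2 and Dkk3) and 1 toward it (Kremen1), and 7 of the 9 Frizzleds were not called. The strongest were Apcdd1 (-5.45 (SE 0.12, adjusted p = 1.8e-24)), Rspo1, Ror1, Wnt7b (-2.67 (SE 0.47, adjusted p = 1.3e-05)), Axin2 (-2.59 (SE 0.12, adjusted p = 2.8e-17)) and Sfrp1 (-2.50 (SE 0.09, adjusted p = 1.5e-17)). Wnt7b rose in both genotypes, from a WT level near 0 at day 3, and its negative interaction means the smaller rise on the log2 scale in KO libraries.

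**Figure D5:**
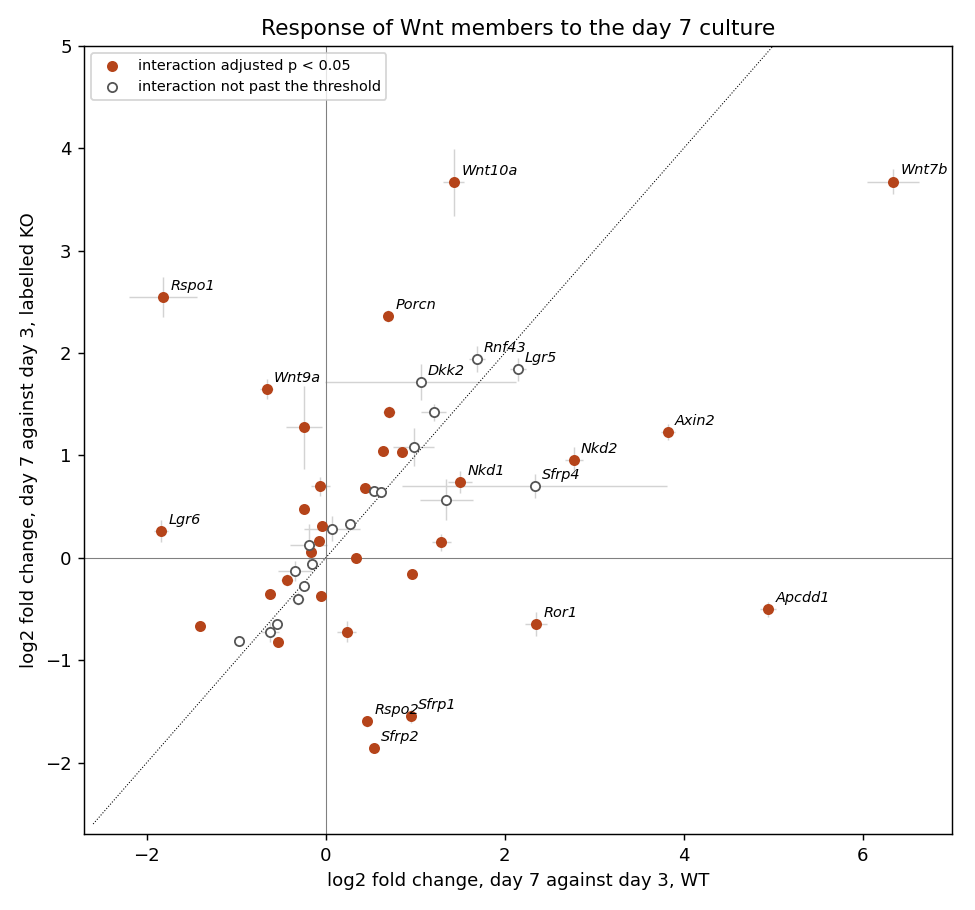
Log2 fold change of the 52 Wnt genes at day 7 against day 3 in WT libraries (x axis) and in libraries labelled KO (y axis), with approximate standard errors; filled points passed the interaction test at an adjusted p of 0.05 and the dotted line marks equal responses. Axin2, Nkd2, Apcdd1 and Ror1 lie far below the line, Sfrp1, Sfrp2 and Rspo2 rose in WT and fell in KO libraries, and Porcn, Wnt10a, Wnt9a and Rspo1 lie above it.

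Genes of the pathway outside the symbol pattern were read from 5 lists of 83 genes, 76 of them measured. Of these, 37 were higher and 32 lower under KO at day 3, beside 43% and 43.4% of all genes. At day 7 they were 32 and 36, beside 41.7% and 44.3%. These totals are near the shares over all genes, and the counts per list below stand beside the same shares. Among 10 secretion and extracellular genes, 5 were higher and 4 lower at day 3 and 4 and 6 at day 7. Wif1, a secreted Wnt inhibitor, was 3.98 ± 0.645 CPM in WT and 0.11 ± 0.035 CPM in KO libraries at day 3, and 12.6 ± 0.251 and 1.16 ± 0.263 CPM at day 7, log2 fold changes of -5.12 and -3.42. Igfbp4, which can also block Frizzled and Lrp6, was lower by 2.91 and 2.31. Frzb, a further secreted Frizzled-related protein, was higher by 1.14 and 2.85. Lrp4, which presents the inhibitor sclerostin, was higher by 0.16 at day 3 and lower by 2.51 at day 7, having risen from 63.7 to 294 CPM in WT libraries.

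Of 14 destruction complex genes, 8 were higher and 5 lower at day 3 and 6 and 6 at day 7. Apc2, a relative of the scaffold Apc, was 33.7 ± 0.869 against 4.01 ± 0.125 CPM at day 3 and 21.7 ± 1.3 against 3.55 ± 0.208 CPM at day 7 (-3.07 and -2.61 on the log2 scale). The kinase genes Csnk1a1 and Csnk1e were higher by 1.03 and 0.99 at day 3, Frat2, whose product binds the kinase Gsk3, was higher by 2.84 at day 7, and Btrc, the ubiquitin ligase subunit that recognises beta-catenin, was lower by 1.36. Of 14 nuclear cofactors, 4 were higher and 8 lower at day 3 and 4 and 10 at day 7. The corepressor genes Tle2 (-2.33 and -2.24) and, at day 7, Tle4 (-1.67) were lower. Ctnnbip1, which keeps beta-catenin from TCF factors, was higher by 1.92 and 1.31. Tcf4, a helix-loop-helix factor that is not the TCF factor Tcf7l2 despite its symbol, was higher by 2.82 and 1.98.

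Of 19 genes known as targets, 13 were higher and 5 lower under KO at day 3 and 11 and 5 at day 7. Their interaction was called toward KO for 6 and away from it for 11, beside 32.5% and 33.5% of all genes. Tnfrsf19, a receptor induced by beta-catenin in progenitors, was 1.0 ± 0.103 CPM in WT and 4.44 ± 0.644 CPM in KO libraries at day 3, and 35.6 ± 4.4 and 33.2 ± 1.9 CPM at day 7. It rose between days in both genotypes, by 5.16 and 2.91 on the log2 scale. Plaur and Cd44 were higher under KO at day 3 by 1.76 and 1.43. Nrcam and Vegfa were higher at day 7 by 3.12 and 2.30, and Gja1, a gap junction gene of osteoblasts, was lower by 1.81. These genes answer to other pathways too. Of 19 planar polarity and beta-catenin independent genes, 7 were higher and 10 lower at day 3 and 7 and 9 at day 7. Prickle1, a core polarity gene, was lower by 2.80 and 2.19, Prickle3 by 1.79 at day 3 and Daam2, which links Dishevelled to the cytoskeleton, by 1.58 at day 7, while Nfatc2, a calcium-dependent factor, was higher by 2.13 and 1.30.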

How the data were processed

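The members, gene lists and tests were chosen with earlier results of these data known. The raw read counts per gene were deposited by the authors; per the submitters' processing notes STAR 2.4.2a, featureCounts, edgeR and the build mm10 were used, with no role given, and which gene annotation was used is not stated in those sources. Per the labels, poly(A) RNA was made into strand-specific paired-end libraries. The scaled columns, which per the file headers are CPM, hold a scaled signal: the authors divided the counts of each library by 1 size; they served only as an alternative scaling. Gene lengths in bases, also deposited by the authors, gave levels per kilobase. The model was fitted with edgeR 4.0.16 in R 4.3.3 (TMM factors 0.949 to 1.05, robust quasi-likelihood, 4 group means over 16 libraries, 12 residual degrees of freedom; filterByExpr removed 0 genes). Standard errors are approximate, from the fold change and its F statistic. Every gene of the table has a summed count of at least 105. Wells varied by 4.25% beyond counting error (common dispersion 0.00181), so small differences pass the test. Alternatives, detailed after the report, were DESeq2 1.42.0, other scalings and filters, chromosome centring and libraries left out. The fit was tested on simulated counts.

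All 52 genes are named. Those with values in each library were taken from the largest called changes at 1 CPM or more in the higher group (8 per genotype comparison, 6 per day comparison and for the interaction), plus anchors such as Axin2, Lef1, Lrp5 and Sfrp1. Wnt6, among the 8 for the genotypes at day 3, is given by group means instead. Values by library of Wnt9a, Lgr6, Rspo2, Dkk3, Fzd8, Nkd1 and Tcf7l1 were added after they were seen. Pathway genes outside the pattern are the 3 largest called changes per list and genotype comparison. WT libraries 1 and 1b of day 3 and 10 and 10b of day 7 share a number; their chi-square per degree of freedom (2.888 and 4.741) lay within the 2.327 to 17.88 of the other 22 pairs in groups, so they entered separately, and were summed in 1 alternative. The highest value was that of library 15 of KO day 7. How reads matching several gene copies were handled is not stated in those notes.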

Additional observations from a re-analysis of the deposited data

Results flagged for a closer look

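For 33 of the 52 genes the difference between days was not the same in both genotypes, by the interaction term of the edgeR quasi-likelihood fit at an adjusted p under 0.05. Over all genes this term was called upward for 32.5% and downward for 33.5%, so the count is near the background. A positive value means a day response more upward in libraries labelled KO, and all values are differences of log2 fold changes. Among the ligands and Porcn the values were 2.31 for Wnt9a, 2.23 for Wnt10a, 1.52 for Wnt6, 0.39 for Wnt5a, -1.14 for Wnt5b, -2.67 for Wnt7b and 1.66 for Porcn. Among receptors and co-receptors they were 0.72 for Fzd8, -0.33 for Fzd2, 0.35 for Lrp5, -0.34 for Lrp6, -3.0 for Ror1, -1.12 for Ror2 and 0.27 for Ryk. The antagonists had -5.45 for Apcdd1, -2.50 for Sfrp1, -2.40 for Sfrp2, -0.29 for Dkk3 and 0.19 for Kremen1. In the R-spondin axis the values were 4.36 for Rspo1, -2.06 for Rspo2, 0.76 for Rspo3, 0.74 for Lgr4, 2.10 for Lgr6 and 0.22 for Znrf3. Inside the cell they were -2.59 for Axin2, -0.76 for Nkd1, -1.82 for Nkd2, 0.22 for Dvl1, 0.72 for Dvl2, 0.25 for Ctnnb1, 0.25 for Tcf7l1 and -0.95 for Lef1.

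Single libraries lying apart were searched for over the 52 genes in each of the 4 groups. In 11 cases 1 library lay apart from the other 3 of its group, with a gap above Dixon's 95% critical value. Chance gives such a gap in about 1 of 20 groups, so the 11 cases are near the number that chance gives. In WT day 3 these were Lgr6 in library 1 (65 CPM, low), Wnt2b in library 3 (0.346, low), Sfrp1 in library 3 (256.4, low), Wnt4 in library 4 (0.731, low) and Fzd4 in library 1b (0.663, high). In KO day 3 Rspo2 was high in library 7 (35.0 CPM) and Tcf7 in library 8 (11). In WT day 7 Sfrp4 was at 0.0529 CPM in library 10, from 2 counts, and at 0 elsewhere. In KO day 7 Wnt10a was low in library 15 (0.721 CPM), Sfrp2 high in library 14 (105.8) and Nkd1 high in library 13 (10.3). None of these moved a library past the nearest library of the other genotype of its day.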

How the results depend on the processing

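Over 24 alternative settings, 16 of which left out 1 library, the counts of Wnt genes stayed within 1.5 times those reported except with the sizes behind the authors' scaled columns. There 6 genes in place of 10 were lower by 2-fold or more under KO at day 3, 17 in place of 26 were lower at day 7, and 8 in place of 14 were lower by 2-fold or more at day 7. Of the pathway genes outside the symbol pattern, whose alternatives were chosen after seeing the data, 12 in place of 32 were then lower at day 3 and 19 in place of 36 at day 7. That scaling moves the median of all genes, as given above, by its construction. Leaving out each library in turn gave 24 to 26 higher and 22 to 25 lower genes at day 3 and 21 to 22 and 25 to 26 at day 7.

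The sign of 16 small differences between genotypes turned. With the authors' library sizes the log2 values at day 3 became 0.16 for Fzd7, 0.43 for Kremen1, 0.066 for Fzd2 and 0.12 for Dvl3. At day 7 they became 0.30 for Fzd7, 0.053 for Fzd5, 0.38 for Ror2, 0.16 for Wnt5a, 0.17 for Dvl3, 0.28 for Lgr4 and 0.48 for Lrp6. With each chromosome's median set to 0 they became 0.39 for Kremen1 and 0.027 for Fzd2 at day 3 and 0.23 for Lrp6 at day 7. With total counts only they became -0.0041 for Ctnnb1 at day 3 and -0.015 for Kremen1 at day 7. Leaving out 1 library ended calls of 8 differences, all small. They were the day 3 genotype differences of Ctnnb1 (3 fits) and Kremen1 (6 fits), the day 7 ones of Fzd3 (1) and Lrp6 (1), the KO day responses of Fzd4 (4), Fzd9 (1) and Lgr6 (3), and the interaction of Znrf3 (7).

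No paired analysis was possible because no number in the titles is shared by 2 groups. Depth limits the fold changes of genes at a few counts in a group, such as Sfrp4, Dkk2 and Wnt7b in WT and Wnt10a and Wnt6 in KO day 3. The fitted spread is that between wells of 1 culture, so it says nothing of other cultures or animals.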
